A study of Homo sapiens with 6 samples.

Results

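Target genes of the transcription factor p53 were followed in EoL-1, an established human line of leukaemic origin that serves as an eosinophil model. The members are 30 genes listed by symbol as known p53 targets. The rule that chose them used no measured value, but the list was drawn up with earlier results of these data known. All 30 were found among the 35052 genes with a transcript in the deposited tables. Of these members, 26 passed the filter on low read counts, as did 13131 genes in all. Polyadenylated RNA was sequenced from 3 libraries of wild-type cells and 3 libraries of ATF3 knockout cells made with CRISPR/Cas9. The growth protocol of both groups is the same, and the labels name no treatment other than the editing. The design text calls the edited cells a knockdown, and the name knockout follows the sample labels. The labels give neither the edited position, nor the number of clones, nor whether cultures were separate, so the p-values reflect nothing but the spread between these libraries, which may be technical.

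p53 is a DNA-binding protein that is kept scarce by the ubiquitin ligase MDM2 and accumulates after DNA damage and other stresses. It binds a pair of similar decamers in DNA and raises the transcription of genes for cell cycle arrest, apoptosis, DNA repair and metabolism, and also of MDM2 itself, which closes a feedback loop. ATF3, a stress-induced bZIP factor, is itself a known p53 target and has been described to bind p53 and to limit its ubiquitination by MDM2. Several p53 targets, among them GDF15, PMAIP1, BBC3 and TNFRSF10B, are also known targets of ATF4 and CHOP, factors of the integrated stress response.

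The libraries held between 26766103 and 30117281 estimated reads. Levels are given as CPM (reads scaled by library size and TMM factors), and changes as log2 fold changes, knockout minus wild type, from edgeR's quasi-likelihood test. A gene is said to have risen or fallen where its p, adjusted by Benjamini-Hochberg over all 13131 genes, was under 0.05. ATF3 (ENSG00000162772.16, chromosome 1, 212565334 to 212620777, GRCh38) had 22.9, 16.2 and 23.0 CPM in wild type and 5.62, 8.33 and 4.52 CPM in knockout, replicates 1 to 3. The change was -1.75 (SE 0.25, edgeR adjusted p = 0.0098), and mRNA remained in every knockout library. Its adjusted p was 0.0527 without wild-type replicate 1. Wild-type replicate 2 stood apart from the other wild-type libraries, at -13.5 on a first principal component (42.1% of the variance) where the others lay at -37.9 and -34.8 and the knockout libraries between 21.0 and 35.5. The labels call the cells eosinophils, but of 10 eosinophil markers 4 (PRG3, CLC, IL5RA and GATA1) had no read and only RNASE2 and RNASE3 passed the filter.

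Most p53 target genes that could be tested were higher in the knockout libraries. Of 26 tested members 15 rose, 1 fell (PMAIP1) and 10 were not called. Over all tested genes 1494 of 13131 (11.4%) rose and 1276 (9.72%) fell. The median log2 fold change of the 26 members was 0.63, and that of all tested genes was 0.01. In 20 members every knockout library lay above every wild-type library, and in 1 member every knockout library lay below, where the shares over all tested genes were 22.2% and 21.4%. The members that rose included the arrest gene CDKN1A, the feedback regulator MDM2, the death receptor FAS and the repair genes DDB2, XPC and POLH.

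The calls changed with the library left out. Without wild-type replicate 1 edgeR called no gene of the whole table (smallest adjusted p 0.0503, 3496 genes and 16 members at an unadjusted p under 0.05), while DESeq2 on the same 5 libraries called 13 members higher and 1 lower, with 9.24% and 8.18% of all genes called higher and lower. Without wild-type replicate 3 edgeR called no member (3701 genes and 17 members at an unadjusted p under 0.05), where 1.57% of all genes were called higher and 1.08% lower. Leaving out knockout replicate 1 gave 5 members higher and 1 lower (5.53% and 4.96% of all genes), and leaving out knockout replicate 2 gave 6 higher and 0 lower (6.94% and 5.91%), so calls fell across the whole table. CDKN1A, PHLDA3, DDB2, XPC and POLH were called without either of these knockout libraries. With an offset for the effective transcript length 6 members were called higher (CDKN1A, BTG2, PLK2, PHLDA3, DDB2 and TIGAR) and 0 lower, where the shares of all genes fell to 5.51% and 5.03%.

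**Figure D1:**
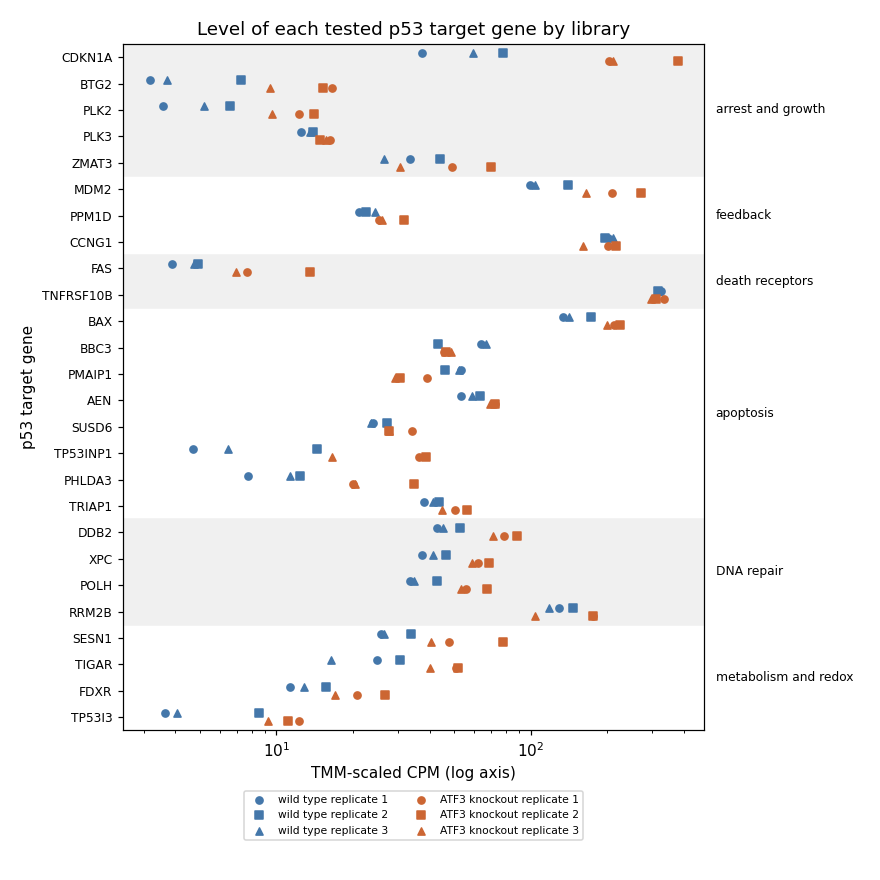
Level of each of the 26 tested p53 target genes in the 6 libraries, as TMM-scaled CPM on a log axis, grouped by role; blue symbols are wild-type and orange symbols knockout libraries, and the shape gives the replicate. CDKN1A, BTG2, PLK2, MDM2 and DDB2 show knockout libraries to the right of all wild-type libraries, PMAIP1 shows them to the left, and TNFRSF10B and CCNG1 overlap.

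A p53 site near the transcription start was looked for in RefSeq promoter windows (GRCh38.p14, 250 bases before to 50 after the start), which were found for 26 of the 30 members. The motif searched was the p53 consensus decamer, which reads the same on both strands. A site was a pair of decamers with a spacer of up to 13 bases and at most 3 mismatches in the 20 bases, each decamer keeping its central C and G. Such a site lay in 6 of the 26 windows (23.1%) and in 3479 of 27305 windows of all genes (12.7%). A decamer without mismatch lay in 3 of the 26 (11.5%) and in 6.54% of all windows. The 4 sites below belong to members that passed the test in either direction, printed on the strand of the gene with capitals for the decamers.
AEN: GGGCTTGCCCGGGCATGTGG
FDXR: GGGCGGGCCCgggcaggagcGGGCTTGCCC
PLK2: AGACTTGCTTcccGGCCACGCGC
PMAIP1: GAGCGTGTCCGGGCAGGTCG

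The site of AEN (chr15:88621306-88621325, plus strand) holds decamers that adjoin, with 2 mismatches, at positions -34 to -15 counted from the RefSeq start as 0. In FDXR (chr17:74872996-74873025, minus strand) a spacer of 10 bases parts them, also with 2 mismatches. PLK2 (chr5:58460196-58460218, minus strand) has a spacer of 3 bases and PMAIP1 (chr18:59899811-59899830, plus strand) has none, each with 3 mismatches. RefSeq and GENCODE place some starts differently. Against the GENCODE transcript to which most reads of the gene were assigned, the site of PMAIP1 lay before the start, those of AEN and PLK2 lay inside the transcribed span and that of FDXR lay across the start. The remaining sites, also with 3 mismatches, were in ZMAT3, which was not called, and in GDF15, which was not tested. So a match near the start was found in members that rose and in the member that fell. The windows of CDKN1A, MDM2 and DDB2 held no match, which says only that these letters are not in those windows. The comparison with GENCODE starts was made only for windows with a match. The DDB2 window ends at 47214503, before the start of the most-read DDB2 transcript at 47214942. Among others, the windows of SESN1, BBC3 and TP53I3 likewise left out the start of the most-read transcript. Known p53 elements of several targets lie outside such windows, in distal promoters or first introns, and were not analysed here.

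Among genes of arrest and growth control CDKN1A, BTG2 and PLK2 rose, and PLK3 and ZMAT3 were not called. CDKN1A (ENSG00000124762.13, chromosome 6, 36676460 to 36687339, plus strand) encodes p21, the inhibitor of cyclin-dependent kinases through which p53 stops the cell cycle. It had 37.3, 77.8 and 59.2 CPM in wild type and 203, 378 and 210 CPM in knockout. The lowest knockout library was thus well above the highest wild-type library. The change was 2.18 (SE 0.34, edgeR adjusted p = 0.011), a 4.54-fold higher level and the largest fitted change of the members. By exact permutation of its log2 CPM values, 3 against 3 and two-sided, p was 0.1, which is the lowest p that 20 arrangements can give. CDKN1A was called in 4 of 6 fits that left out a library, and its adjusted p was 0.051 without wild-type replicate 1 and 0.0532 without wild-type replicate 3.

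BTG2 (ENSG00000159388.5, chromosome 1, 203305491 to 203309602, plus strand), an antiproliferative protein that promotes mRNA deadenylation, had 3.17, 7.24 and 3.72 CPM in wild type and 16.6, 15.3 and 9.43 CPM in knockout. It rose by 1.55 (SE 0.36, edgeR adjusted p = 0.0273). PLK2 (ENSG00000145632.14, chromosome 5, 58453982 to 58460260, minus strand), a polo-like kinase, had 3.57, 6.57 and 5.18 CPM in wild type and 12.3, 14 and 9.56 CPM in knockout. The groups of both genes were apart although the genes were low. PLK2 rose by 1.23 (SE 0.25, edgeR adjusted p = 0.0198), and by 2.11 with the effective length offset. BTG2 and PLK2 kept their calls in 2 of the 6 fits that left out a library, without wild-type replicate 2 or knockout replicate 3, and their adjusted p reached 0.1 and 0.075.

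PLK3, a related polo-like kinase, had 12.5, 13.9 and 13.6 CPM in wild type and 16.2, 14.8 and 15.7 CPM in knockout. These groups did not overlap, but the difference of 0.22 (SE 0.09) did not pass the test (edgeR adjusted p = 0.132). ZMAT3, an RNA-binding zinc finger protein, overlapped between the groups, with 33.6, 44.0 and 26.4 CPM in wild type and 48.8, 70.0 and 30.7 CPM in knockout. Its fitted change was 0.52 (SE 0.31, edgeR adjusted p = 0.264).

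Of the genes that act back on p53, MDM2 rose, and PPM1D and CCNG1 were not called. MDM2 (ENSG00000135679.23, chromosome 12, 68808176 to 68850686, plus strand), the ubiquitin ligase of p53, had 98.9, 140 and 104 CPM in wild type and 208, 272 and 165 CPM in knockout. Every knockout library was above the highest wild-type library. The change was 0.91 (SE 0.21, edgeR adjusted p = 0.0256), a 1.88-fold higher level, with an adjusted p of 0.105 without wild-type replicate 1. MDM2 has a constitutive promoter and a downstream promoter in its first intron that carries its known p53 response. Transcripts annotated to start in that intron held 20.7, 23.2 and 20.9% of the gene's reads in the wild-type libraries and 22.8, 21.3 and 18.3% in the knockout libraries. Transcripts that start at the upstream promoter held 73.4, 71.7 and 73.6% and 72.1, 73.8 and 75.5%. The shares overlapped. The division of reads between transcripts that share most exons is uncertain, and MDM2 also shares 439 exonic bases with a processed pseudogene on its strand.

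PPM1D, the phosphatase WIP1 that dephosphorylates p53 and its kinases, had 21.2, 22.4 and 24.4 CPM in wild type and 25.3, 31.7 and 26.0 CPM in knockout. The groups lay close beside each other without overlap, at a difference of 0.29 (SE 0.11, edgeR adjusted p = 0.103). CCNG1, cyclin G1, was abundant and overlapped, with 201, 196 and 211 CPM in wild type and 201, 216 and 161 CPM in knockout. Its fitted change was -0.07 (SE 0.11, edgeR adjusted p = 0.683).

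Of the death receptors FAS rose and TNFRSF10B was not called. FAS (ENSG00000026103.21, chromosome 10, 88990582 to 89015785, plus strand), the receptor of the FAS ligand, was low, with 3.89, 4.92 and 4.74 CPM in wild type and 7.65, 13.5 and 6.96 CPM in knockout. It rose by 1.05 (SE 0.28, edgeR adjusted p = 0.0385), and was called in 1 of the 6 fits that left out a library. When only protein-coding transcripts were summed the change was 0.50 with an adjusted p of 0.467, in a fit that called 10.6% of 11704 genes higher and 9.26% lower. The coding share of the FAS reads varied widely, at 54.2, 93.5 and 58.0% in wild type and 67.1, 46.0 and 30.6% in knockout. FAS also shares 380 exonic bases with ACTA2 on the opposite strand, whose estimated reads were highest in knockout replicate 2 as well (745 reads, where the other libraries held 144 to 269), and whether the strand was used in the quantification is not stated.

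TNFRSF10B, the TRAIL receptor DR5, was abundant, with 325, 316 and 319 CPM in wild type and 333, 311 and 297 CPM in knockout. The groups overlapped and the fitted change was -0.03 (SE 0.06, edgeR adjusted p = 0.778). EDA2R, a receptor of ectodysplasin, had 0 reads in 5 libraries and 2 reads in knockout replicate 3, and was not tested. A count of 0 allows up to 3 reads, or 0.103 to 0.115 CPM in these libraries, counting error alone.

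Apoptosis genes were called in both directions. Of 8 tested genes in this role 4 rose (BAX, AEN, TP53INP1 and PHLDA3), 1 fell (PMAIP1) and 3 were not called. The shares of all tested genes were 11.4% higher and 9.72% lower, so 1 fall of 8 is near the share of all genes. TP53INP1 (ENSG00000164938.13), a stress protein that promotes the phosphorylation of p53, had 4.69, 14.4 and 6.45 CPM in wild type and 36.5, 38.8 and 16.5 CPM in knockout. It rose by 1.84 (SE 0.48, edgeR adjusted p = 0.0381), the second largest fitted change of the members, although wild-type replicate 2 and knockout replicate 3 lay close together. PHLDA3 (ENSG00000174307.6, chromosome 1, 201464383 to 201469237, minus strand), an inhibitor of AKT, had 7.75, 12.4 and 11.3 CPM in wild type and 20.0, 34.7 and 20.3 CPM in knockout. It rose by 1.25 (SE 0.27, edgeR adjusted p = 0.0219). Without wild-type replicate 1 the adjusted p was 0.122 for TP53INP1 and 0.0849 for PHLDA3.

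BAX (ENSG00000087088.19, chromosome 19, 48954815 to 48961798, plus strand), the pore-forming BCL2 family member of the mitochondrial outer membrane, had 134, 173 and 141 CPM in wild type and 212, 224 and 199 CPM in knockout. It rose by 0.50 (SE 0.11, edgeR adjusted p = 0.0209). AEN (ENSG00000181026.14, chromosome 15, 88621296 to 88632282, plus strand), an apoptosis-enhancing nuclease, had 53.1, 63.0 and 58.6 CPM in wild type and 72.4, 72.3 and 69.4 CPM in knockout. Its change of 0.29 (SE 0.08, edgeR adjusted p = 0.039) was the smallest among the members that rose. BAX kept its call in 2 and AEN in 1 of the 6 fits that left out a library, with adjusted p of 0.0887 and 0.138 without wild-type replicate 1.

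PMAIP1 (ENSG00000141682.11, chromosome 18, 59899948 to 59904306, plus strand) encodes NOXA, a BH3-only protein that neutralises MCL1. It had 53.1, 46.2 and 52.0 CPM in wild type and 39.2, 30.5 and 29.2 CPM in knockout, so every knockout library was below every wild-type library. The change was -0.61 (SE 0.13, edgeR adjusted p = 0.0197), the only fall among the members. The adjusted p was 0.0865, 0.0762 and 0.0575 when wild-type replicate 1, wild-type replicate 3 or knockout replicate 2 was left out. BBC3, the BH3-only protein PUMA, had 63.8, 43.3 and 66.8 CPM in wild type and 45.5, 46.4 and 48.5 CPM in knockout. Only wild-type replicate 2 overlapped the knockout range, and the difference was -0.31 (SE 0.16, edgeR adjusted p = 0.205). Without that library BBC3 was also called lower, at -0.48 with an adjusted p of 0.014.

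Among the members known as targets of both p53 and the ATF4 and CHOP factors, PMAIP1 was the gene that passed the test. Of GDF15, PMAIP1, BBC3 and TNFRSF10B, 3 were tested, 0 rose and 1 fell by edgeR (0 higher at an unadjusted p under 0.05, and 0 by DESeq2), with a median log2 fold change of -0.31. Of 9 other ATF4 stress response genes 9 fell, where 9.72% of all tested genes fell, with a median of -1.40. ATF5 fell by 2.87, ASNS, asparagine synthetase, by 1.09 and SLC7A11, the cystine transporter, by 2.13 (edgeR adjusted p = 0.00731, 0.00787 and 0.00787). Their adjusted p was 0.0503 each without wild-type replicate 1. Beside these values, TRIB3 of the same list stood at 222, 88.4 and 235 CPM in wild type. Wild-type replicate 2 was thus the lowest of its group, as it was for PMAIP1 and BBC3. That library was also the wild-type library nearest the knockout libraries on the first principal component of all genes. In knockout the orders differed: TRIB3 had 28.9, 22.9 and 36.2 CPM, lowest in replicate 2, while PMAIP1 was lowest in replicate 3 and BBC3 in replicate 1. Whether the stress response had a part in the p53 target levels was not tested.

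SUSD6 and TRIAP1 complete the tested apoptosis genes. SUSD6, a membrane protein also called DRAGO, had 24.0, 27.3 and 23.6 CPM in wild type and 34.0, 27.8 and 27.6 CPM in knockout. TRIAP1, a mitochondrial protein that restrains apoptosis, had 38.2, 43.5 and 41.2 CPM in wild type and 50.2, 56.0 and 44.7 CPM in knockout. Both had knockout libraries just above the wild-type range, with differences of 0.26 (edgeR adjusted p = 0.139) and 0.30 (edgeR adjusted p = 0.0762). CDIP1 had 6 to 26 reads per library and was not tested.

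Of 4 DNA repair genes 3 rose, and the groups of these 3 lay apart. Of all tested genes 11.4% rose, and in 22.2% every knockout library lay above every wild-type library. DDB2 (ENSG00000134574.11, chromosome 11, 47214465 to 47239240, plus strand), which recognises ultraviolet lesions, had 42.9, 52.7 and 45.3 CPM in wild type and 78.3, 88.2 and 70.8 CPM in knockout. It rose by 0.75 (SE 0.11, edgeR adjusted p = 0.0102), the smallest p of the members. XPC (ENSG00000154767.14, chromosome 3, 14145147 to 14178783, minus strand), the damage sensor of nucleotide excision repair, had 37.3, 46.6 and 41.3 CPM in wild type and 61.8, 68.6 and 58.7 CPM in knockout. Its change was 0.59 (SE 0.10, edgeR adjusted p = 0.0133). POLH (ENSG00000170734.11, chromosome 6, 43576150 to 43615660, plus strand), the polymerase that copies past pyrimidine dimers, had 33.4, 42.9 and 34.7 CPM in wild type and 55.5, 67.2 and 53 CPM in knockout.

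The change of POLH was 0.66 (SE 0.13, edgeR adjusted p = 0.0183). All 3 repair genes were called in 4 of the 6 fits that left out a library. Without wild-type replicate 1 their adjusted p was 0.0555 (DDB2), 0.0636 (XPC) and 0.0831 (POLH), and without wild-type replicate 3 it was 0.0519, 0.0603 and 0.0759. XPC shares 1140 exonic bases with XPC-AS1 on the opposite strand, for which no read values were available. On that strand XPC also shares 413 exonic bases with ENSG00000268279, which had 3.1 to 6.6 reads per library. It shares 318 with LSM3 there, whose reads overlapped between the groups (1102 to 1268 in wild type and 997 to 1260 in knockout). RRM2B, the p53-inducible subunit of ribonucleotide reductase, overlapped, with 129, 147 and 118 CPM in wild type and 176, 176 and 104 CPM in knockout. Its fitted change was 0.21 (SE 0.20, edgeR adjusted p = 0.502). Knockout replicate 3 was the lowest of all libraries for RRM2B, and without it the gene was called, at 0.41 with an adjusted p of 0.0367.

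In metabolism and redox control SESN1, TIGAR and FDXR rose. SESN1 (ENSG00000080546.13, chromosome 6, 108986437 to 109094819, minus strand), a sestrin that restrains mTORC1, had 25.7, 33.9 and 26.5 CPM in wild type and 47.9, 77.7 and 40.6 CPM in knockout. Its change was 0.95 (SE 0.25, edgeR adjusted p = 0.0377). TIGAR (ENSG00000078237.6, chromosome 12, 4307763 to 4354593, plus strand), a fructose bisphosphatase that slows glycolysis, had 24.9, 30.7 and 16.4 CPM in wild type and 50.9, 51.7 and 40.3 CPM in knockout. Its change was 0.99 (SE 0.22, edgeR adjusted p = 0.0251). It shares 1711 exonic bases with another gene annotated on its strand (ENSG00000285901), so its reads are uncertain to that degree.

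FDXR (ENSG00000161513.11, chromosome 17, 74862497 to 74873031, minus strand), the mitochondrial reductase of ferredoxin, had 11.3, 15.6 and 12.8 CPM in wild type and 20.8, 26.6 and 17 CPM in knockout. The change was 0.70 (SE 0.19, edgeR adjusted p = 0.0438). SESN1, TIGAR and FDXR were each called in 2 of the 6 fits that left out a library, with adjusted p up to 0.138, 0.0947 and 0.152. TP53I3, a quinone oxidoreductase also called PIG3, had 3.64, 8.50 and 4.08 CPM in wild type and 12.3, 11.1 and 9.25 CPM in knockout. The groups were apart, but the fitted change of 1.01 (SE 0.33) did not pass the test (edgeR adjusted p = 0.0715). Without wild-type replicate 2, the highest of its group, TP53I3 was called at 1.49 with an adjusted p of 0.0113. SPATA18, a mitochondrial quality control protein, had at most 2 reads in a library, and the secreted cytokine GDF15 had 0 to 6 reads per library, so both were below the filter in both groups.

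**Figure D2:**
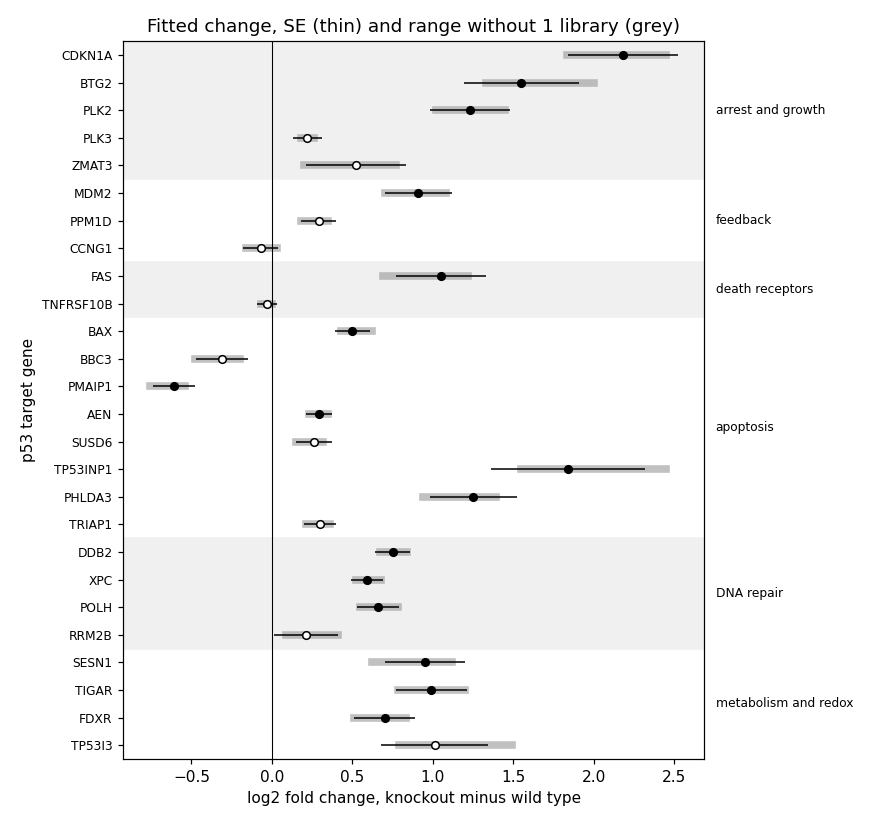
Fitted log2 fold change of the 26 tested members, knockout minus wild type, with its SE as a thin line and, as a grey bar, the range of the fitted values when each of the 6 libraries was left out in turn. Filled points passed an adjusted p of 0.05 with all libraries and open points did not; CDKN1A ranged from 1.83 to 2.45 and PMAIP1 from -0.76 to -0.54, while the range of CCNG1 crossed 0.

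Within a group most members that rose shared the highest and the lowest library. Among the 15 members that rose, wild-type replicate 2 was the highest wild-type library in 15 and wild-type replicate 1 the lowest in 14. Knockout replicate 2 was the highest knockout library in 13 and knockout replicate 3 the lowest in 13. These 15 members were picked by the difference between the groups. The first principal component of all tested genes had the same order, at -37.9, -13.5 and -34.8 in wild type and 29.8, 35.5 and 21.0 in knockout. How many of all genes share this order was not counted, so it cannot be called particular to p53 targets. Relative to the wild-type mean of each gene, the median log2 CPM of the 26 tested members was -0.13, 0.20 and -0.02 in the wild-type libraries and 0.58, 0.89 and 0.46 in the knockout libraries. The medians over all tested genes stayed between 0.00 and 0.02. Every knockout library was thus above every wild-type library on this scale.

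By its profile over the 6 libraries, XPC, PHLDA3, DDB2 and POLH were the members most like CDKN1A (Pearson r of log2 CPM 0.99 for each after rounding, a description that includes the difference between the groups). PMAIP1 ran against it, with r = -0.93. The myeloid marker LYZ, lysozyme, was also highest in replicate 2 of each group. It had 65.6, 259 and 62.3 CPM in wild type and 634, 746 and 347 CPM in knockout. Of the other tested neutrophil granule and monocyte markers, MPO and S100A8 were also highest in replicate 2 of each group. CSF1R, CD68, ITGAM and MS4A3 were not, and S100A9 was at 183 CPM in both knockout replicates 1 and 2. In knockout CSF1R had 129, 103 and 160 CPM and CD68 61.0, 51.8 and 76.5 CPM. Of 4 tested neutrophil granule markers 3 rose, with a summed level of 54.6 to 153 CPM in wild type and 280 to 590 CPM in knockout, while ELANE, PRTN3 and AZU1 were at 0 reads. Of 4 tested monocyte and macrophage markers 3 rose, with sums of 148 to 396 CPM and 592 to 913 CPM. Both tested eosinophil markers rose, with sums over the list of 36.5 to 51.9 CPM and 116 to 182 CPM. Lymphocyte markers summed to at most 7.48 CPM in any library, and erythroid and megakaryocyte markers to at most 2.00 CPM. The 1 tested lymphocyte marker was not called, and the 1 tested erythroid and megakaryocyte marker rose, by 1.71 at this low level. These marker lists hold few tested genes, and of all tested genes 11.4% rose and 9.72% fell. The part of these marker genes' cell states in the p53 target levels was not tested. In bulk RNA more cells of a type and more RNA per cell cannot be told apart.

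Of 23 tested regulators of p53 among 25 listed, 1 rose, 4 fell and 18 were not called, with a median log2 fold change of -0.03. The shares over all tested genes were 11.4% and 9.72%. TP53BP1, a chromatin protein of the response to double-strand breaks, rose by 0.43 (SE 0.08, edgeR adjusted p = 0.0165). CHEK1, a checkpoint kinase, fell by 0.53 (SE 0.10, edgeR adjusted p = 0.0145), and ATF3 is itself among the 4 that fell. MDM4, the partner of MDM2 in holding p53 down, differed by -0.11 (SE 0.09, edgeR adjusted p = 0.421). CDKN2A, which encodes the MDM2 inhibitor ARF, had no read in any library. No gene of this list was called without wild-type replicate 1.

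In a second list of 32 further p53 targets 25 were tested, of which 6 rose, 1 fell and 18 were not called, with a median of 0.28. Over all tested genes 11.4% rose and 9.72% fell. APAF1, the core of the apoptosome, had 127, 173 and 118 CPM in wild type and 301, 289 and 268 CPM in knockout, and rose by 1.04 (SE 0.15, edgeR adjusted p = 0.00957). PML, the scaffold of nuclear bodies, rose by 0.52 (SE 0.07, edgeR adjusted p = 0.00914). SESN2, a sestrin that is also a known ATF4 target, had 106 to 157 CPM in wild type and a mean of 52.2 ± 9.51 CPM (SD, n = 3) in knockout, without overlap, and fell by 1.40 (SE 0.19, edgeR adjusted p = 0.00914). The sestrins SESN1 and SESN2 thus moved in opposite directions. Leaving out wild-type replicate 1 gave an adjusted p of 0.0527 for APAF1, 0.0537 for PML and 0.0510 for SESN2.

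Genes of DNA replication and mitosis are known to be lowered by p53 through p21 and the DREAM complex. By edgeR 0 of 28 tested genes rose, 3 fell (CHEK1, MCM6 and BUB1B) and 25 were not called. The count of 3 falls is near the 9.72% of all tested genes that fell. At an unadjusted p under 0.05 there were 0 higher and 10 lower of the 28. Over all 13131 tested genes 2595 were higher and 2308 lower at that threshold. Their median log2 fold change was -0.20, and in 10 of them every knockout library was below every wild-type library, which held for 21.4% of all tested genes. MCM6, a subunit of the replicative helicase, fell by 0.42 (SE 0.07, edgeR adjusted p = 0.0135) and BUB1B, a mitotic checkpoint kinase, fell by 0.29 (SE 0.05, edgeR adjusted p = 0.0156). DESeq2 called 0 of these genes higher and 9 lower, where it called 15.2% of all genes higher and 14.3% lower. Without wild-type replicate 1 edgeR called none, with adjusted p of 0.0636 for MCM6 and 0.0742 for BUB1B.

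**Figure D3:**
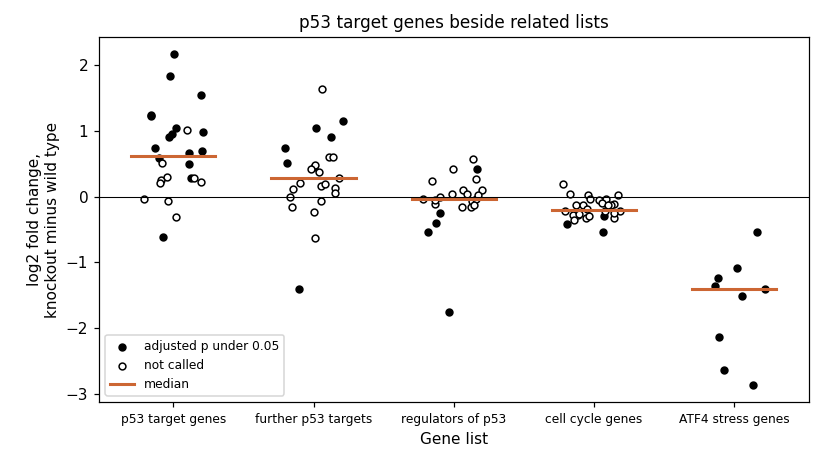
Fitted log2 fold change (knockout minus wild type) of each tested gene in 5 lists, with filled points for an adjusted p under 0.05 and orange lines for the median. The 26 p53 target genes have a median of 0.63, the 25 further targets 0.28, the 23 regulators of p53 -0.03, the 28 cell cycle genes -0.20 and the 9 ATF4 stress genes -1.40.

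Part of the reads of some members was assigned to transcripts annotated with a retained intron, which do not encode the full protein. In BAX these held 51.2, 52.8 and 51.5% of the gene's estimated reads in the wild-type libraries and 61.4, 61.3 and 55.0% in the knockout libraries, without overlap. The BAX reads of protein-coding transcripts went from 67.4 ± 7.20 CPM (SD, n = 3) to 80.4 ± 3.17 CPM (SD, n = 3), a log2 ratio of the means of 0.25, and those of retained-intron transcripts from 77.5 ± 12.1 CPM (SD, n = 3) to 126 ± 14.4 CPM (SD, n = 3), a log2 ratio of 0.70. As the reads were assigned, the higher BAX level lay more in the retained-intron transcripts. The division of reads between transcripts that share exons is uncertain. In DDB2 retained-intron transcripts held 46.9, 43.8 and 46.9% in wild type and 48.5, 46.9 and 55.5% in knockout, with log2 ratios of 0.53 for coding and 0.88 for retained-intron reads. In CCNG1 their share was lower in knockout without overlap, at 4.50, 3.41 and 5.03% in wild type and 2.79, 2.41 and 3.05% in knockout. With protein-coding transcripts alone 12 members were called higher and 1 lower, and BAX (adjusted p = 0.0931), DDB2 (adjusted p = 0.0583) and FAS lost their calls. CDKN1A, MDM2, XPC and POLH had over 89% of their reads in protein-coding transcripts in every library, and their fitted changes on those alone were 2.18, 0.92, 0.60 and 0.66.

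SESN1 and BBC3, like MDM2, have transcripts with distant starts, and their division did not separate the groups. The downstream start of SESN1 held 65.6, 72.1 and 72.8% of its reads in the wild-type libraries and 66.6, 77.7 and 74.7% in the knockout libraries, so reads from both starts were higher. In BBC3 the downstream start held 74.8, 61.1 and 84.4% in wild type and 71.4, 73.2 and 78.1% in knockout, a wider spread within wild type than between the groups.

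**Figure D4:**
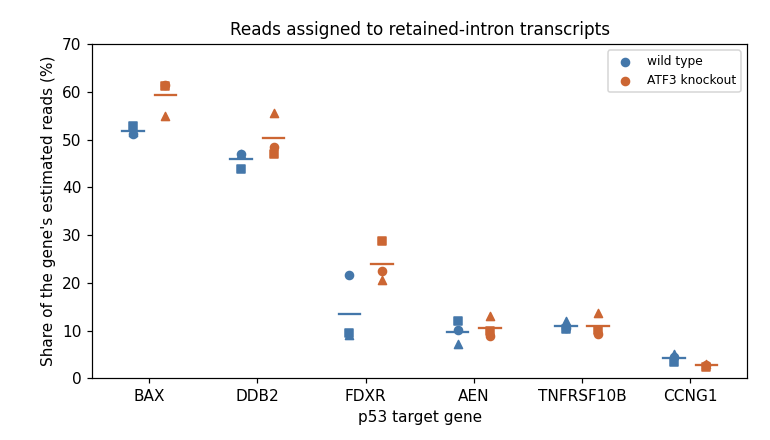
Share of each gene's estimated reads assigned to retained-intron transcripts, in percent, for 6 members; each point is a library (blue wild type, orange knockout, shapes for replicates) and lines are group means. The BAX shares are 51.2 to 52.8% in wild type and 55.0 to 61.4% in knockout, and those of AEN and TNFRSF10B overlap. The CCNG1 shares are lower in knockout, at 3.41 to 5.03% in wild type and 2.41 to 3.05% in knockout.

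Per length of transcript, the members spanned a wide range of levels. In wild type RRM2B (299 ± 61.2 TPM, SD, n = 3), BAX (263 ± 55.0 TPM, SD, n = 3), CCNG1 (134 ± 5.45 TPM, SD, n = 3) and TNFRSF10B (97 ± 0.807 TPM, SD, n = 3) were the highest. RRM2B and BAX did not differ beyond their spread. The level of RRM2B rests in part on an annotated transcript of 201 bases, to which 53.9 to 92.7 reads were assigned per library, and short transcripts weigh heavily in TPM. CDKN1A went from the ninth place at 29.3 ± 8.42 TPM (SD, n = 3) in wild type to the third at 138 ± 56.3 TPM (SD, n = 3) in knockout, where it did not differ from CCNG1 beyond the spread. TP53INP1 (1.34 ± 0.820 TPM, SD, n = 3) had the lowest mean of the tested members in wild type. BTG2 (2.09 ± 0.875 TPM, SD, n = 3) and PLK2 (2.15 ± 0.748 TPM, SD, n = 3) did not differ from it beyond the spread.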

How the data were processed

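For each library the authors deposited Salmon's output for 177456 transcripts: expected counts, TPM values, lengths and effective lengths, per the file headers. The submitters' processing notes name Salmon 1.6.0, FastQC 0.11.9 and hg38, and the labels name the Illumina Stranded mRNA Prep kit. For library type and transcriptome release the sources used here give nothing. The expected counts deposited by the authors were joined to GENCODE 29 by transcript identifier, version ignored (167027 transcripts matched, and those without a gene held 3.59 to 3.82% of reads and were left out), summed per gene and rounded. The deposited TPM values, scaled per library by the authors' tool, served as levels per length and entered no test.

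The test was the quasi-likelihood F test of edgeR 4.0.16 (under R 4.3.3; glmQLFit, glmQLFTest) on the group over all 6 libraries, with TMM factors, filterByExpr with a minimum count of 10, and Benjamini-Hochberg adjustment at 0.05 over 13131 genes. It had 4 residual degrees of freedom and a biological coefficient of variation of 16.8%, and was tested on simulated data. There it called 26.2% of genes changed 1.5-fold, 68.7% of those changed 2-fold and 86.2% of those changed 4-fold. Of unchanged genes it called 0.0313%. Smaller changes were thus mostly missed. Alternatives were DESeq2 1.42.0, limma-voom (limma 3.58.1), upper-quartile factors, no filter, an offset for effective length, a replicate block and leaving out each library. Protein-coding transcripts alone, and DESeq2 without wild-type replicate 1, were added after seeing the data. The members and gene lists were chosen with earlier results of these data known. Named genes are all members, ATF3, MDM4 and, per list, up to 3 called genes with the smallest p. The values of 1 more gene under this rule are not reported here. LYZ, TRIB3, CDKN2A, ACTA2 and LSM3 were chosen after their values were seen. The other tested neutrophil granule and monocyte markers are named to stand beside LYZ. Where a count of reads is 0, intervals and limits cover counting error alone.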

Additional observations from a re-analysis of the deposited data

How the results depend on the processing

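Without each library in turn, the genes called higher ranged from 0 to 1370 and those called lower from 0 to 1388, and the members from 0 to 16 higher and from 0 to 2 lower. The same fits called 0 to 10 further p53 targets higher and 0 to 2 lower, 0 to 2 regulators of p53 higher and 0 to 4 lower, and 0 to 5 cell cycle genes lower. The median of the members stayed between 0.52 and 0.76 in them. With the effective length offset 723 genes were called higher and 661 lower, 6 members higher and 0 lower, and 0 regulators higher and 2 lower. In that fit RRM2B was at -0.07 and MDM4 at 0.02, against the signs with all reads, and CCNG1 lay between -0.16 and 0.03 when each library was left out, the latter without knockout replicate 3. DESeq2 called 10 further targets and 2 regulators higher and 9 cell cycle genes lower, and limma-voom called 2 regulators higher. Protein-coding transcripts alone gave 5 cell cycle genes lower. DESeq2 called 16 members higher (of all genes 15.2% higher and 14.3% lower), upper-quartile factors 15 (10.0% and 10.7%), limma-voom 14 (11.2% and 9.78%) and the unfiltered fit 14 (6.25% and 5.44%), each with 1 member lower.

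Replicate numbers are shared by the groups, but same-numbered libraries did not all deviate together (r = -0.092, 0.106 and 0.196 over genes for numbers 1, 2 and 3), so the numbers are taken as names. The fit with a replicate block called 15 members higher (ZMAT3 gained at an adjusted p of 0.0400, AEN lost at 0.0564) and 1 lower, 5 cell cycle genes lower, and 1225 genes (9.33%) higher and 1093 (8.32%) lower. Not every library correlated best with its own number. With all 6 libraries and 4 residual degrees of freedom, small changes such as those of PLK3, PPM1D and TRIAP1 could not be told from no change. AEN passed at a similar size (0.29), and TRIAP1 was called without knockout replicate 3 (edgeR adjusted p = 0.0359). The untested members EDA2R, SPATA18, GDF15 and CDIP1 are limited by their reads.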
